A study of Mus musculus with 8 samples.

Results

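The 10 genes described here encode heat shock proteins and cochaperones: Hspa1a, Hspa1b, Hspa5, Hspa8, Hsph1, Hsp90aa1, Hsp90ab1, Dnajb1, Hspb1 and Hspd1. They were chosen by name and found by their mouse Ensembl identifiers among the 52636 genes of the deposited tables, and all 10 were among the 12538 protein-coding genes with more than 1 TPM (a level per transcript length, scaled to the same total in every library) in at least 1 library. The libraries came from articular cartilage of the knee of male C57BL/6 mice, labelled as 10 weeks old, either WT or lacking the osteoclast-associated receptor gene (Oscar-/-). Each genotype was studied 2 and 4 weeks after sham surgery or destabilization of the medial meniscus (DMM), an operation that leads to osteoarthritis and that was done in mice of 10 to 12 weeks. One library was made for each of the 8 combinations, each from 10 cartilages combined, and none was repeated. The comparisons asked whether surgery, genotype and time, or the answer to surgery in the absence of Oscar, changed the genes.

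Heat shock proteins are chaperones, which hold unfolded proteins and help them to fold. HSP70 proteins bind short exposed stretches of a client in a cycle driven by ATP, J-domain cochaperones such as the product of Dnajb1 deliver clients and start ATP hydrolysis, HSP110 proteins such as the product of Hsph1 release the nucleotide, and HSP90 finishes many kinases and receptors. Heat shock factor 1 switches on the inducible members through heat shock elements, inverted repeats of GAA, while the form in the endoplasmic reticulum, Hspa5 (BiP), answers to the unfolded protein response. In cartilage, chondrocytes secrete large amounts of collagen and proteoglycan, which makes folding in the endoplasmic reticulum a central task of the cell.

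Total expected counts, the RSEM estimates of reads per gene, ranged from 13189181 to 18533609 per library, and Oscar had 0 counts in all 4 Oscar-/- libraries. The tissue held much besides cartilage. The 14 chondrocyte markers summed to 1154 to 3264 TPM, 9 erythroid markers to 266712 to 378731 TPM, 9 neutrophil markers to 67420 to 109278 TPM and 7 fibroblast markers to 754 to 2015 TPM, and no marker found from the 9 cell type lists was at 0 in any library. Hemoglobin genes took 26.5% to 37.7% of TPM, which moves the TPM of every other gene. Counts divided by the library size and edgeR's trimmed mean of M-values factor (TMM-scaled counts, in edgeR's CPM) are therefore given beside TPM. In such bulk samples fewer cells of a type and less RNA per cell cannot be told apart.

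Together the 10 genes took 0.113% to 0.147% of TPM, and the constitutive HSP70 gene Hspa8 alone made up 42.8% to 47.4% of that sum. By median TPM over the 8 libraries Hspa8 (611) was followed by Hsp90ab1 (304), Hspa5 (171), Hsp90aa1 (149), Hspd1 (62.8), Dnajb1 (26.3), Hsph1 (12.8), Hspb1 (10.1), Hspa1b (2.69) and Hspa1a (1.57). Neighbours in this order had ranges that did not overlap, apart from 3 pairs: Hspa5 lay above Hsp90aa1 in 7 of 8 libraries, Hsph1 above Hspb1 in 6 of 8 and Hspa1b above Hspa1a in 8 of 8. The constitutive forms thus held the top of the order and the stress-inducible Hspa1a and Hspa1b the bottom. In TPM the highest library exceeded the lowest by 1.2-fold for Hsph1 and by 2.6-fold for Hspa1b, the smallest and largest folds among the 10.

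**Figure D1:**
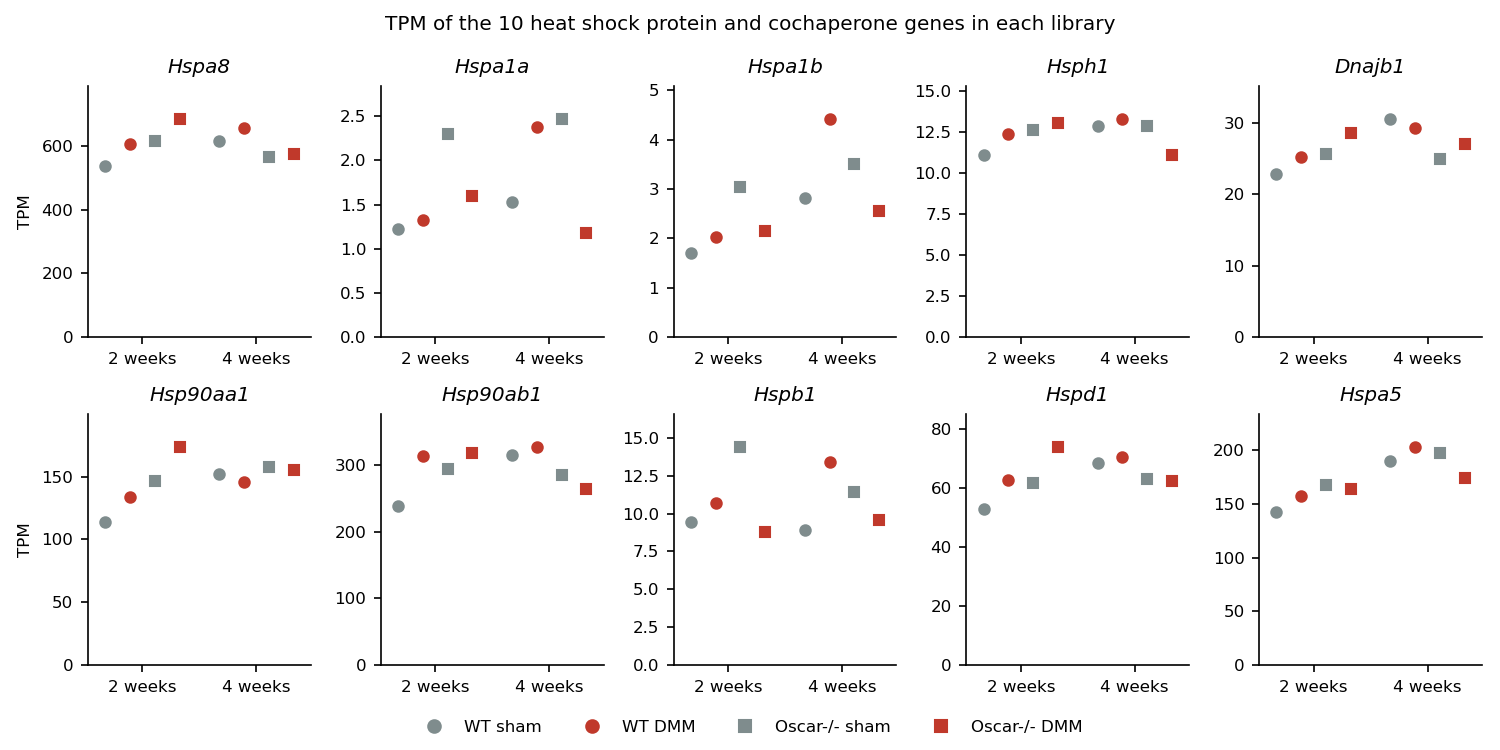
TPM (vertical axes, from 0) of each of the 10 genes in the 8 libraries at 2 and 4 weeks, 1 point per library, circles for WT, squares for Oscar-/-, gray for sham and red for DMM. Hspa8 sits between 537 and 686 TPM, and Hspa1a between 1.18 and 2.47 TPM, with the Oscar-/- sham library its highest point within each week.

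Hspa1a and Hspa1b encode nearly the same inducible HSP70 protein and are neighbours on the minus strand of chromosome 17 (GRCm38), Hspa1b from 34956436 to 34959238 and Hspa1a from 34969190 to 34972156. Of the stretches of read length in the Hspa1a transcripts (called words here), 46.9% also occurred in Hspa1b, so that the division of reads between them is uncertain, and their sum is given too. Their promoters are shown with that of Hspb1, since these 3 genes had the lowest interaction estimates below. Each sequence is the 250 bases before the RefSeq transcription start on GRCm38.p6, outside the gene, and the capitals mark the heat shock element searched, GAANNTTC.
Hspa1a, chr17:34972157-34972406, minus strand: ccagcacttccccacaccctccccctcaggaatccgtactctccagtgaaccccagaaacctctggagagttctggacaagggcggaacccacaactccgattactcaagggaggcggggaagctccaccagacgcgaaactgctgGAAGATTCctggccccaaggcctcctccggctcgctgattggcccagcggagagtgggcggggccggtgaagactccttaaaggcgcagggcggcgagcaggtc
Hspa1b, chr17:34959239-34959488, minus strand: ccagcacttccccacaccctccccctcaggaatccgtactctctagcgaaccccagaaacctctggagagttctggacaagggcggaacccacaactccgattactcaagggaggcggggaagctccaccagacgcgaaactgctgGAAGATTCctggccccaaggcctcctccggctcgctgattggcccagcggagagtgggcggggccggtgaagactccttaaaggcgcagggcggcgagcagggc
Hspb1, chr5:135887669-135887918, plus strand: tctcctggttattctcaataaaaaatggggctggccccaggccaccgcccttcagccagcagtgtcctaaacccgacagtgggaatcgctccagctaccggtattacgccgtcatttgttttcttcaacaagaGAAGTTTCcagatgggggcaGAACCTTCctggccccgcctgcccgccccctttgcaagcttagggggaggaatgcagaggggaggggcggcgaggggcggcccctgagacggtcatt

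The windows of Hspa1a and Hspa1b differed at 3 of 250 positions, and each held 1 element, whose first base lay 104 bases before the start. Hspb1 held 2 elements, 117 and 97 bases before the start. Promoter windows were matched for 7 of the 10 members (10 windows, since 3 members have 2 starts), and none for Hspa8, Hsp90aa1 and Hsp90ab1. Either form of the element, GAANNTTC or TTCNNGAA, which both read the same on the other strand, was in 6 of these 10 windows, from Hspa1a, Hspa1b, Hspb1, Hsph1 and 1 start of Hspd1. Among the 32851 windows of all genes 12.8% held one. The 2 windows of Hsph1 overlap and hold the same element, and those of Hspa1a and Hspa1b are nearly alike. The 6 windows are therefore not independent of each other. The window of Hspa5 held neither form and 4 CCAAT boxes (CCAAT or ATTGG), a box that 33.8% of all windows hold. Dnajb1 had neither form in its 2 windows. A match to these letters is a description of the window and not a site of binding.

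In WT, Hspa1a was at 1.22 TPM after sham and 1.33 after DMM at 2 weeks, and at 1.53 and 2.38 at 4 weeks. In Oscar-/- it was at 2.30 after sham and 1.60 after DMM at 2 weeks, and at 2.47 and 1.18 at 4 weeks. Hspa1b was at 1.70 and 2.03 TPM in WT at 2 weeks and 2.82 and 4.42 at 4 weeks, while the Oscar-/- libraries had 3.04 and 2.14 TPM in the earlier week, then 3.50 and 2.56. By TPM both genes were higher after DMM than after sham in WT at each week, and lower after DMM in Oscar-/- at each week. All expressed genes had a median log2(DMM/sham) on TPM of 0.35 and 0.05 in WT at 2 and 4 weeks. In Oscar-/- that median was −0.03 and −0.15. At 2 weeks in WT the log2(DMM/sham) of Hspa1a (0.12) and Hspa1b (0.26) thus lay below the median of all genes. In TMM-scaled counts WT at 2 weeks went the other way, from 5.11 after sham to 4.35 after DMM for Hspa1a and from 6.72 to 6.27 for Hspa1b. The other directions held on that scale, with 4.35 and 6.46 for Hspa1a and 7.47 and 11.3 for Hspa1b in WT at 4 weeks. In Oscar-/- Hspa1a was at 7.92 and 5.77 scaled counts at 2 weeks, then 7.29 and 3.83, and Hspa1b at 9.90 and 7.25, then 9.72 and 7.89. The sham libraries of Oscar-/- stood above those of WT for both genes at both weeks on both scales. Counts behind these values were low, 63.7 to 101.8 for Hspa1a and 97.6 to 156.1 for Hspa1b, so that counting alone gives a standard error of 0.18 (Hspa1a) and 0.15 (Hspa1b) on the log2 scale in the lowest library.

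Hspa8, the constitutive HSP70 of the cytosol on chromosome 9, was at 537, 608, 615 and 686 TPM at 2 weeks (WT after sham and DMM, then Oscar-/- after sham and DMM, the order used from here on) and at 616, 655, 567 and 575 TPM at 4 weeks. In TMM-scaled counts it was at 1417, 1277, 1356 and 1650 at 2 weeks and at 1136, 1145, 1130 and 1190 at 4 weeks. All 4 libraries at 4 weeks thus lay below all 4 at 2 weeks in scaled counts, while the TPM of both weeks overlapped. Hspa8 shared 28.1% of its words with 7 other genes, mostly pseudogenes, of which the leading one, Gm15459, had 58.3 to 244.5 counts against at least 15783 for Hspa8.

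Dnajb1, the J-domain partner of HSP70 on chromosome 8, was at 22.9, 25.2, 25.6 and 28.6 TPM at 2 weeks, then at 30.6, 29.3, 24.9 and 27.0 at 4 weeks. In TMM-scaled counts it was at 96.9, 83.3, 89.2 and 103.4 at 2 weeks and at 87.0, 80.3, 74.3 and 89.0 at 4 weeks. On the latter scale each WT library after DMM lay below its sham library and each Oscar-/- library after DMM above it. Hsph1, the HSP110 gene on chromosome 5 whose product exchanges nucleotides on HSP70, varied least by TPM, at 11.1, 12.4, 12.7 and 13.1 TPM at 2 weeks, then at 12.9, 13.3, 12.9 and 11.1 at 4 weeks. In TMM-scaled counts Hsph1 was at 39.3, 36.9, 36.7 and 48.3 in the earlier week and at 34.4, 36.6, 35.8 and 33.6 in the later one, and on that scale Hspa5 varied least (1.22-fold, against 1.44-fold for Hsph1). Reads of neither gene were shared with other genes over a read's length, and their counts were whole numbers in all 8 libraries.

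The cytosolic HSP90 genes are Hsp90ab1, the constitutive form on chromosome 17, and Hsp90aa1, the more inducible form on chromosome 12. Hsp90ab1 was at 239, 314, 294 and 318 TPM at 2 weeks, then at 315, 328, 286 and 264 at 4 weeks. Hsp90aa1 was at 114, 133, 147 and 174 TPM at 2 weeks, then at 152, 146, 157 and 156 at 4 weeks. By TPM the sham library of WT at 2 weeks was the lowest for both genes. It was so for Hspa8, Hspa5, Hspd1, Dnajb1 and Hspa1b too, and its hemoglobin share was the highest (37.7%). In TMM-scaled counts Hsp90ab1 was at 821, 833, 821 and 926.5 at 2 weeks and at 715, 713, 675 and 693 at 4 weeks. On that scale this library was the lowest of all for neither gene. In TMM-scaled counts Hsp90aa1 was at 485, 421, 465 and 564 at 2 weeks and at 386, 349, 377 and 406 at 4 weeks, so that the weeks did not overlap and, within each week, DMM was below sham in WT and above sham in Oscar-/-.

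Hspb1, a small heat shock protein that binds unfolded clients without ATP, lies on chromosome 5. It was at 9.46, 10.7, 14.4 and 8.79 TPM at 2 weeks, then at 8.94, 13.4, 11.4 and 9.58 at 4 weeks, from 99.4 to 160.8 counts per library. As for Hspa1a and Hspa1b, by TPM WT libraries were higher and Oscar-/- libraries lower after DMM at both weeks, while in TMM-scaled counts WT at 2 weeks was lower after DMM (10.4 after sham, 9.12 after DMM). The log2(DMM/sham) of Hspb1 on TPM in WT at 2 weeks (0.17) also lay below the median of all genes (0.35). On both scales Oscar-/- sham stood above WT sham for Hspb1. Its pseudogene Hsp25-ps1, which shares 43.9% of its words, was given 0 to 4.58 counts.

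Hspd1, the mitochondrial chaperonin HSP60 on chromosome 1, was at 52.7, 62.7, 61.6 and 74.0 TPM at 2 weeks, then at 68.4, 70.3, 62.9 and 62.3 at 4 weeks. Its gene overlaps that of its cochaperonin Hspe1 on the other strand (935 to 1413 counts), and whether strand was used in counting is not given in the sources used here. Hspa5, the HSP70 of the endoplasmic reticulum on chromosome 2, was at 143, 158, 168 and 164 TPM at 2 weeks, then at 191, 204, 198 and 174 at 4 weeks. For Hspa5 every library at 4 weeks was above every library at 2 weeks in TPM. The share of all genes with such a separation was not counted. On log2(TPM + 1) the median log2 fold change of all genes over time was itself 0.23 (limma fit, below). In TMM-scaled counts the weeks overlapped, from 398 to 467 at 2 weeks and from 382 to 418 at 4 weeks.

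All 8 libraries were then used together in edgeR quasi-likelihood fits over the 12538 genes, with terms for week, surgery and genotype, and the log2 fold changes of the members were set beside their confidence intervals. After DMM against sham 0 of 10 members were called at an adjusted p under 0.05, beside 0% of all genes called up and 0% called down, and 0 members had an unadjusted p under 0.05. Their log2 fold changes ran from −0.25 (95% interval −0.76 to 0.26) for Hspa1a to 0.08 (−0.13 to 0.29) for Hsph1. DESeq2 and limma on log2(TPM + 1) also called 0 members in this comparison, with 0 at an unadjusted p under 0.05 by either. The interval of Hspa8, the most abundant member, was −0.17 to 0.28.

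In Oscar-/- against WT 0 of 10 members were called by edgeR, DESeq2 or limma, beside 0.00798% of all genes called up and 0.0399% called down by edgeR. All 10 estimates of edgeR were above 0, from 0.01 for Hsp90ab1 to 0.26 (−0.25 to 0.77) for Hspa1a, with 0 members at an unadjusted p under 0.05. DESeq2 had 0 as well and limma had 1, Hsp90aa1, at 0.22 (adjusted p = 0.9999 by limma). The sign did not hold for every tool, since limma on TPM gave −0.03 for Hsp90ab1 and −0.02 for Dnajb1, and the median of all genes was 0.01 in edgeR and −0.03 in limma.

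At 4 against 2 weeks edgeR called 0 of 10 members up and 0 down, beside 5.58% of all genes called up and 2.35% called down. At an unadjusted p under 0.05 stood 4 members, all lower at 4 weeks, beside 13.1% of all genes lower and 14.1% higher at that threshold. Hsp90aa1 had a log2 fold change of −0.35 ± 0.10 (SE, adjusted p = 0.0563 by edgeR), Hsp90ab1 of −0.28 ± 0.09 (adjusted p = 0.0708 by edgeR), Hspa8 of −0.31 ± 0.10 (adjusted p = 0.0903 by edgeR) and Hspd1 of −0.22 ± 0.08 (adjusted p = 0.123 by edgeR). These are the abundant chaperones of the cytosol and the mitochondrial HSP60. Scaled counts of all 4 libraries at 4 weeks lay below all 4 at 2 weeks for these genes and for Hsph1, 5 of 10 members beside 8.09% of all genes. DESeq2 called Hsp90aa1 (adjusted p = 0.00954), Hsp90ab1 (adjusted p = 0.0114) and Hspa8 (adjusted p = 0.0146) lower at 4 weeks, beside 2.98% of all genes. Without the filter on low values edgeR called Hsp90aa1 (adjusted p = 0.0337), beside 2.37%.

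The direction over time depended on the unit. On TPM, limma gave a median log2 fold change of 0.10 for the members against 0.23 for all genes, whereas edgeR gave −0.21 against −0.02, so that the members' median lay below that of all genes on both scales. Limma called Hspa5 higher at 4 weeks (0.28, adjusted p = 0.0386), beside 21% of all genes, while edgeR gave −0.14 ± 0.08 for it (adjusted p = 0.311). Markers of other cells moved over time as well. By edgeR 5 of 7 B cell markers were called lower at 4 weeks (median −0.52, summed TPM 268 to 364 at 2 weeks and 239 to 297 at 4 weeks). Chondrocyte markers had a median of −0.50 (1 of 13 called lower), fibroblast markers of −0.57 (1 of 7 called lower and 1 higher) and macrophage markers of 0.16 (2 of 7 called higher), and their part in the result was not tested. All libraries at 2 weeks carried 1 lane token in their names and those at 4 weeks carried 2 others, so time and lane cannot be told apart. At 4 weeks the genotypes also carried different tokens, and there genotype and lane cannot be told apart either.

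**Figure D2:**
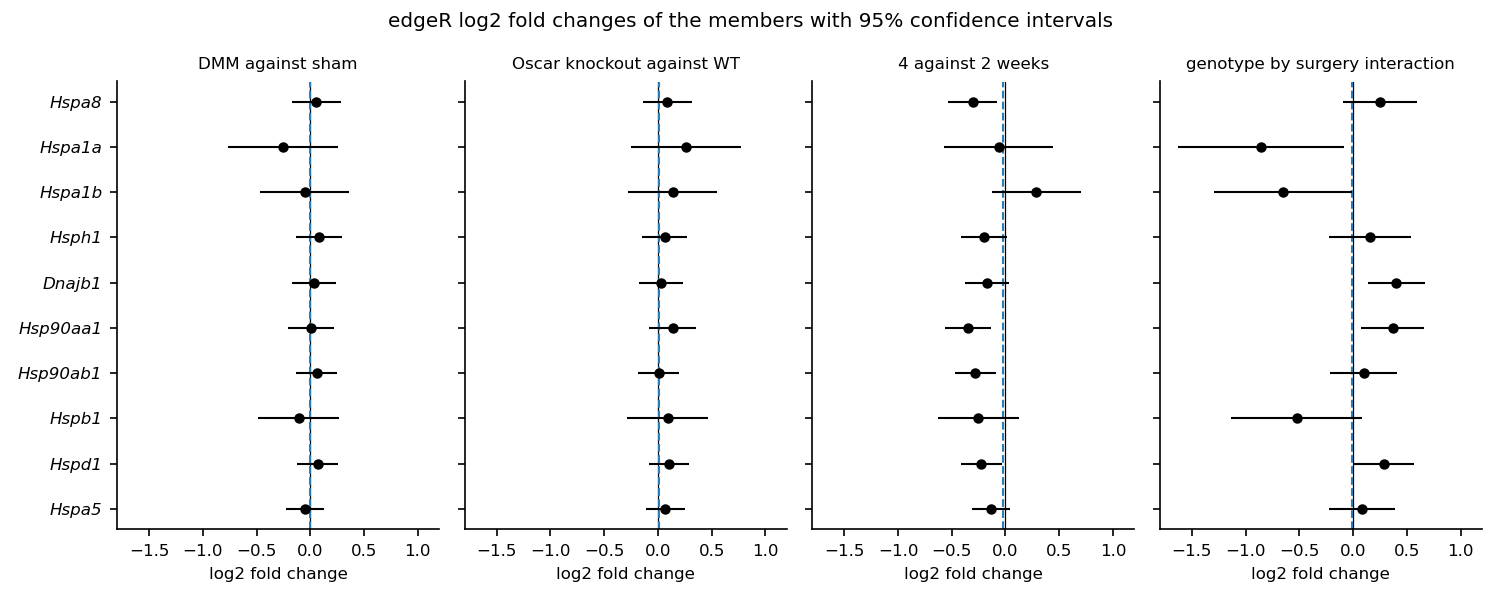
Log2 fold changes of the 10 members (points) with 95% confidence intervals (lines) from edgeR in 4 comparisons, with the blue dashed line at the median of all 12538 genes. Every interval for DMM and for Oscar-/- includes 0, the whole intervals of Hsp90aa1, Hsp90ab1, Hspa8 and Hspd1 lie below 0 over time, and in the interaction those of Hspa1a and Hspa1b lie below 0 and those of Dnajb1, Hsp90aa1 and Hspd1 above it.

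The interaction asked whether the response to DMM differed between Oscar-/- and WT, with a negative value where the response was lower in Oscar-/-. On scaled counts Hspa1a, Hspa1b and Hspb1, the 3 least abundant members, had negative estimates and the other 7 positive ones. EdgeR called 0 of 10 members up and 0 down, beside 1.41% and 3.83% of all genes, and at an unadjusted p under 0.05 stood 3 members above 0 and 2 below, beside 11% and 13.2% of all genes. DESeq2 called 0 members, with 2 above 0 at an unadjusted p under 0.05 (Dnajb1 and Hsp90aa1), beside 7.02% of all genes. Limma on TPM called 0, with 3 below 0 at that threshold (Hspa1a, Hspa1b and Hspb1), beside 18.5%.

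The lowest estimates were −0.86 ± 0.35 (SE) for Hspa1a (adjusted p = 0.164 by edgeR), −0.65 ± 0.29 for Hspa1b (adjusted p = 0.201) and −0.52 ± 0.28 for Hspb1 (adjusted p = 0.275). With the counts of Hspa1a and Hspa1b added together the estimate was −0.74 ± 0.28 (95% interval −1.35 to −0.13, adjusted p = 0.1355 by edgeR). These are the heat-inducible HSP70 pair and the small heat shock protein whose promoters are printed above. Hsph1 and Hspd1, which also held a heat shock element, had positive estimates (0.16 and 0.29), and a link to the elements was not tested. Leaving out 1 library at a time moved Hspa1a between −1.28 and −0.42, Hspa1b between −0.99 and −0.23 and Hspb1 between −0.80 and −0.29. Fibroblast markers moved the same way, with a median of −1.23 and 5 of 7 called down by edgeR. Their summed level in WT was 794 and 754 TPM after sham (2 and 4 weeks) and 2015 and 1759 after DMM, and in Oscar-/- it was 1536 and 1176 after sham and 1551 and 935 after DMM. Osteoblast and osteocyte markers (median −0.86, 4 of 7 called down) and endothelial markers (median −0.66, 5 of 6 called down) did likewise, as did chondrocyte markers (median −0.77, 2 of 13 called down), and the part of these cells in the result was not tested.

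Above 0 stood Dnajb1 at 0.40 ± 0.12 (SE, adjusted p = 0.0736 by edgeR), Hsp90aa1 at 0.37 ± 0.13 (adjusted p = 0.124) and Hspd1 at 0.29 ± 0.13 (adjusted p = 0.197). Hspa8 (0.25 ± 0.16), Hsph1 (0.16 ± 0.17), Hsp90ab1 (0.10 ± 0.14) and Hspa5 (0.08 ± 0.14) had intervals that included 0. Dnajb1 was called without the WT sham library of 4 weeks (0.40, adjusted p = 0.0486 by edgeR), beside 7.69% of all genes called up in that fit, and without the filter on low values (0.44, adjusted p = 0.0295 by edgeR), beside 2.9%. On TPM 8 of the 10 estimates were negative, with a median of −0.20 against −0.26 for all genes, while edgeR gave a median of 0.13 against −0.01. The members' median thus lay above that of all genes on both scales. Erythroid markers had a median of 0.61, with 1 of 9 called up, and their part in the result was not tested.

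The same contrast was taken week by week as DIF, the log2(DMM/sham) of Oscar-/- minus that of WT. With 1 library per condition these are single values, given with a standard error that covers counting only. For Hspa1a DIF on TPM was −0.65 ± 0.32 at 2 weeks and −1.70 ± 0.33 at 4 weeks, from a log2(DMM/sham) of 0.12 and 0.64 in WT and of −0.52 and −1.07 in Oscar-/-. For Hspa1b it was −0.76 ± 0.28 and −1.10 ± 0.25, and for Hspb1 −0.89 ± 0.24 and −0.84 ± 0.26. The median DIF of all expressed genes was itself −0.41 and −0.22 from TPM at the earlier and the later week, and these 3 genes lay below it at both weeks. On TMM-scaled counts, where the medians were −0.01 and −0.02, DIF was −0.23 and −1.50 for Hspa1a, −0.35 and −0.90 for Hspa1b and −0.46 and −0.64 for Hspb1.

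The other members had DIF values nearer 0 on TPM. The DIF of Hspa8 was −0.02 ± 0.02 (2 weeks) and −0.07 ± 0.02 (4 weeks) from TPM, against 0.43 and 0.06 on TMM-scaled counts. Dnajb1 had 0.02 ± 0.08 and 0.18 ± 0.08 on TPM, and 0.43 and 0.38 on the other scale. Hsp90aa1 had 0.02 ± 0.03 and 0.05 ± 0.04, and 0.48 and 0.25. On both scales and at both weeks these 3 genes, chaperones of the cytosol and their J-domain partner, lay above the median of all genes. Hspd1 did so too, at 0.01 and −0.05 on TPM and 0.44 and 0.13 in scaled counts, and so did Hsp90ab1, at −0.28 and −0.18 on TPM and 0.15 and 0.04 in scaled counts. Hspa5 lay at −0.18 and −0.28 on TPM and at 0.26 and −0.09 in scaled counts, above the median at 2 weeks and below it at 4 weeks. Hsph1 did the same, with −0.11 ± 0.12 and −0.26 ± 0.13 on TPM and 0.49 and −0.18 in scaled counts.

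On TPM 4 members, Hspa1a, Hspa1b, Hspb1 and Hspa5, were higher after DMM in WT and lower after DMM in Oscar-/- at both weeks, beside 27.4% of all genes, and 0 members had the reverse signs, beside 2.57%. On TMM-scaled counts 0 members had the first pattern, beside 12.9%, and Hsp90aa1, Dnajb1 and Hspd1 had the reverse one, beside 16.8%. In scaled counts WT at 2 weeks was the exception for Hspa1a, Hspa1b and Hspb1, with a log2(DMM/sham) of −0.23, −0.10 and −0.19. At 4 weeks their WT values were 0.57, 0.60 and 0.54 on that scale. The count of members with opposite signs in WT and Oscar-/- thus depended on the scale.

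**Figure D3:**
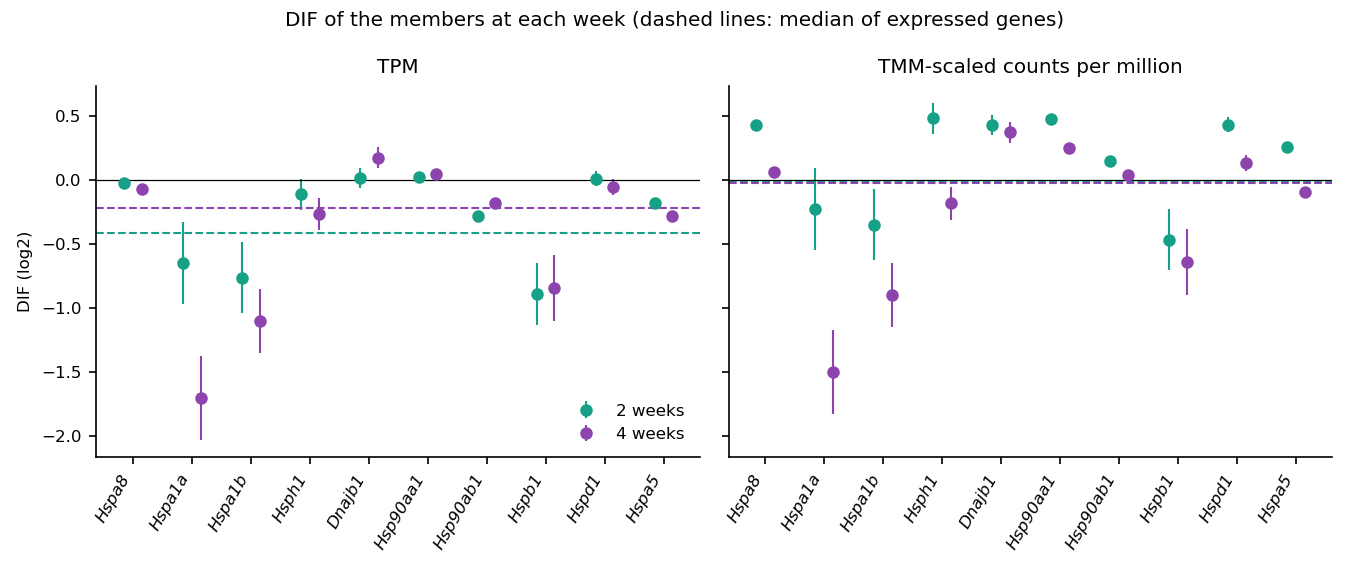
DIF (log2, vertical axis) of the 10 members at 2 weeks (green) and 4 weeks (purple), from TPM on the left and TMM-scaled counts on the right, with counting standard errors (from expected counts in both panels) as lines and the median of expressed genes as dashed lines. Hspa1a at 4 weeks is the lowest point in both panels (−1.70 and −1.50), and Dnajb1, Hsp90aa1, Hsp90ab1, Hspa8 and Hspd1 lie above the dashed line of their week in both.

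Ratios between members within a library do not depend on scaling between libraries. They were chosen after the values had been seen. Inducible HSP70 against constitutive HSP70, as Hspa1a plus Hspa1b per 100 TPM of Hspa8, was 0.544, 0.553, 0.869 and 0.545 at 2 weeks and 0.706, 1.04, 1.05 and 0.650 at 4 weeks. The Oscar-/- sham library was the highest of each week, close to WT DMM at 4 weeks. In expected counts WT DMM was the higher of these at 4 weeks, with 1.554 against 1.503. The 95% counting intervals of Oscar-/- sham, 0.760 to 0.994 at 2 weeks and 0.926 to 1.197 at 4 weeks, did not overlap those of Oscar-/- DMM, 0.470 to 0.633 and 0.565 to 0.747. In WT the intervals of sham and DMM overlapped at 2 weeks and not at 4 weeks (0.608 to 0.820 and 0.915 to 1.18). All these intervals cover counting in 1 library each, so a lack of overlap does not measure the spread between libraries.

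The inducible against the constitutive HSP90, as Hsp90aa1 per 100 TPM of Hsp90ab1, was 47.7, 42.5, 49.8 and 54.7 at 2 weeks and 48.2, 44.4, 55.0 and 59.0 at 4 weeks. It was lower after DMM in WT at both weeks, by −5.20 and −3.81, and higher after DMM in Oscar-/-, by 4.88 and 4.02. The ratio of expected counts moved the same way, with 59.0, 50.5, 56.6 and 60.8 at 2 weeks and 54.1, 48.9, 55.9 and 58.6 at 4 weeks. With 2 weeks per genotype an exact permutation test of this difference cannot give a two-sided p below 0.333, so it was not tested. By genotype the TPM ratio was 54.6 ± 3.76 in Oscar-/- and 45.7 ± 2.72 in WT (mean ± SD, n = 4 each), with no overlap. The 4 libraries of a genotype differ in surgery and week, so the SD spans conditions and not replicates. A two-sided exact permutation p was 0.0286, the smallest that 4 against 4 allows. That permutation moved libraries freely across surgeries and weeks, so its p ignores their matching and does not measure the spread of replicates. After adjustment over the 18 tests of 6 ratios and 3 factors the exact permutation p was 0.171. For expected counts the genotypes overlapped, with 58.0 ± 2.22 and 53.1 ± 4.47 and an exact permutation p of 0.143, or 0.617 after adjustment. Hsp90aa1 shares 37.8% of its words with other genes, and Hsp90ab1 none.

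Among the other ratios, Dnajb1 per 100 TPM of Hspa8 was 4.14 to 4.26 at 2 weeks and 4.39 to 4.96 at 4 weeks (exact permutation p = 0.0286, n = 4 each, adjusted 0.171). In expected counts it was 6.27 to 6.84 and 6.57 to 7.66, which overlap. Hsph1 per 100 TPM of Hspa8 was 1.90 to 2.04 after DMM and 2.06 to 2.27 after sham (exact permutation p = 0.0286, n = 4 each, adjusted 0.171). Its expected counts gave 2.83 to 3.19 and 2.71 to 3.17, so that the higher mean changed sides. The 4 libraries on each side of these tests also differ in the other factors, and the permutation did not keep them matched. No ratio passed the adjusted test in either unit. With 18 tests and a smallest possible exact permutation p of 0.0286, a ratio alone at that floor could not pass. The design thus nearly fixed this outcome, and it does not tell whether the ratios differed.

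**Figure D4:**
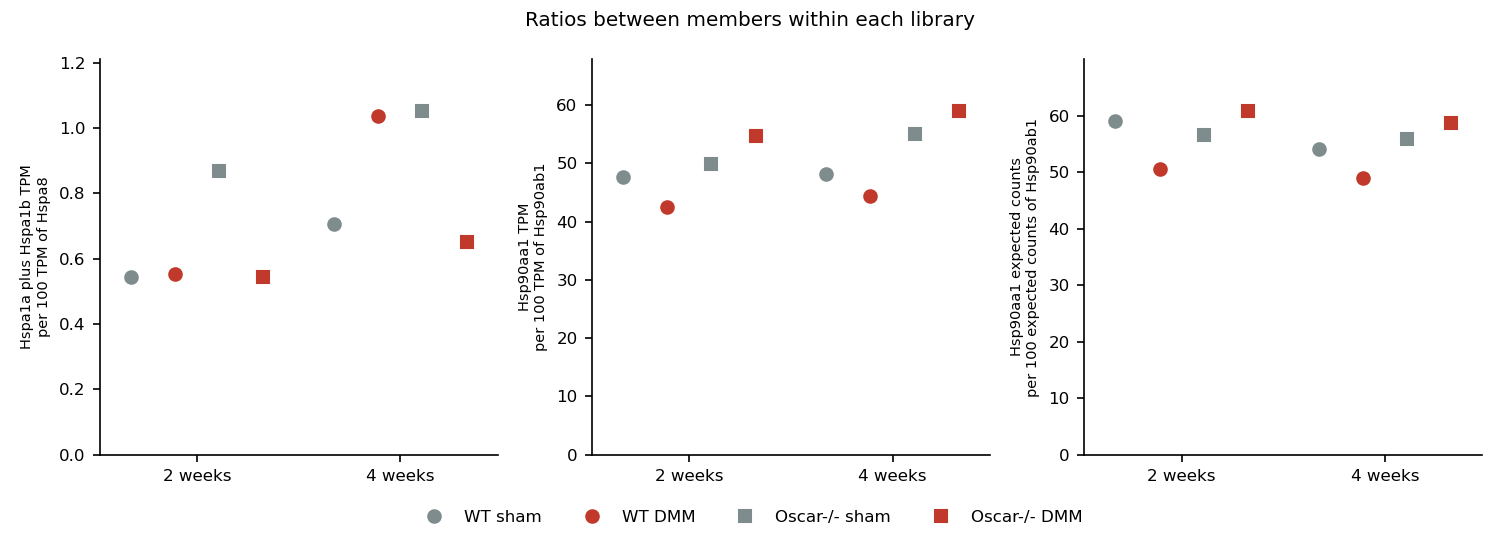
Ratios within each library at 2 and 4 weeks, 1 point per library, circles for WT, squares for Oscar-/-, gray for sham and red for DMM: Hspa1a plus Hspa1b per 100 TPM of Hspa8 (left), Hsp90aa1 per 100 TPM of Hsp90ab1 (middle) and the latter in expected counts (right). In the middle panel the Oscar-/- libraries (49.8 to 59.0) lie above the WT libraries (42.5 to 48.2), and in the right panel they overlap.

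Lists of related genes showed how far the pattern of the members was shared. Heat shock factors were present at low levels: Hsf1, the master factor of the response, was at 8.08 to 13.04 TPM and Hsf2 at 2.08 to 3.22 TPM. Of the 4 genes tested on the list of heat shock factors and regulators, 0 were called by edgeR in any of the 4 comparisons, with 1 of 4 at an unadjusted p under 0.05 over time. Hsf1 had an interaction of 0.13 ± 0.16 (adjusted p = 0.654 by edgeR).

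By edgeR more chaperones were lower than higher at 4 weeks, where 2.35% of all genes were called lower and 5.58% higher. At an unadjusted p under 0.05, 13.1% of all genes were lower and 14.1% higher. On TPM the direction differed: of 75 folding genes of the cytosol and mitochondria limma called 9 higher and 0 lower, beside 21% of all genes higher. Cell cycle genes had an edgeR median of −0.16, with 0 of 14 called. Of the other HSP70 and HSP110 genes 1 of 7 was called by edgeR, Hspa4, an HSP110 relative (−0.28 ± 0.07, adjusted p = 0.0366). Bag1, a nucleotide exchange factor of HSP70, was the 1 of 10 called on its list (−0.33 ± 0.09, adjusted p = 0.0476 by edgeR). Hspa9, the mitochondrial HSP70, was the 1 of 12 mitochondrial chaperones called (−0.30 ± 0.07, adjusted p = 0.0366 by edgeR). The chaperonin TRiC had 1 of 7 called, Tcp1, with a median of −0.27 over the 7 and 6 at an unadjusted p under 0.05, and prefoldin, which hands clients to TRiC, had 1 of 6 called, Pfdn4, with a median of −0.24. Of 16 J-domain cochaperones, 17 HSP90 cochaperones, 6 other small heat shock proteins and 20 chaperones of the endoplasmic reticulum 0 were called by edgeR, with 5, 6, 1 and 8 lower and 1, 2, 0 and 0 higher at an unadjusted p under 0.05.

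Genes that edgeR called higher at 4 weeks came from 2 other lists, beside 5.58% of all genes called higher. Edem1, which routes misfolded glycoproteins to degradation, was the 1 of 18 genes of the unfolded protein response called (0.41 ± 0.06, adjusted p = 0.00702 by edgeR), and Zfp36, which destabilizes messenger RNA, was the 1 of 19 immediate-early genes called (0.45 ± 0.08, adjusted p = 0.0141 by edgeR). All these medians stand beside −0.02 for all genes. On TPM limma called 32 of the 156 genes of all 13 lists higher at 4 weeks and 0 lower, close to the 21% of all genes that it called higher, and their median was 0.16 beside 0.23 for all genes.

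In the interaction 6 of the lists of folding genes of the cytosol and mitochondria had medians above that of all genes, and 1, the other HSP70 and HSP110 genes, had one below it (−0.05 over 7 genes). The medians of the 6 were 0.34 for 6 prefoldin genes, 0.32 for 7 TRiC genes, 0.29 for 12 mitochondrial chaperones, 0.18 for 16 J-domain cochaperones, 0.15 for 17 HSP90 cochaperones and 0.06 for 10 cochaperones of nucleotide exchange and docking, beside −0.01 for all genes. Of the 75 genes of all 7 lists edgeR called 1 up, the J-domain gene Dnajc9 (0.50 ± 0.12, adjusted p = 0.044), a share close to the 1.41% of all genes. At an unadjusted p under 0.05 edgeR had 27 of the 75 above 0 and 2 below, beside 11% and 13.2% of all genes, and DESeq2 had 16 and 0, beside 7.02% and 7.46%, with Dnajc9 called. On TPM the sign changed: limma gave a median of −0.09 for the 75 genes against −0.26 for all genes, with 0 called and, at an unadjusted p under 0.05, 0 above 0 and 2 below. Cell cycle genes had a median of 0.41 by edgeR, with 3 of 14 called up (Cdk1, Tyms and Ccnb2).

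In the same direction as Hspb1 and the Hspa1 pair, Hspb8, a small heat shock protein that works with Bag3, was called down (−1.15 ± 0.19, adjusted p = 0.0157 by edgeR). It was at 4.30, 8.42, 9.60 and 6.05 TPM at 2 weeks, then at 4.03, 7.04, 7.21 and 5.18 at 4 weeks, higher after DMM in WT and lower after DMM in Oscar-/-. It was the only one called of the 6 other small heat shock proteins, whose median was −0.10, beside 3.83% of all genes called down. Of 19 immediate-early genes, transcription factors and feedback regulators that answer within minutes to many stimuli, edgeR called 3 down, beside the same 3.83%. They were Klf4 (−0.58 ± 0.13, adjusted p = 0.0307 by edgeR), Egr1 (−0.97 ± 0.23, adjusted p = 0.0366) and Fos (−0.71 ± 0.17, adjusted p = 0.0379), and the median of the 19 was −0.39.

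Beside Hspa5, the 20 chaperones and folding enzymes of the endoplasmic reticulum had an interaction median of 0.05. EdgeR called 2 of them down, beside 3.83% of all genes: Fkbp10 (−0.80 ± 0.15, adjusted p = 0.0212) and Serpinh1 (−0.93 ± 0.19, adjusted p = 0.02495). Both serve the folding of collagen, and Col1a1 and Col1a2, which encode collagen I, were among the fibroblast markers called down. Of 18 genes of the unfolded protein response edgeR called 2 up, beside 1.41% of all genes. They were Ppp1r15a, which dephosphorylates eIF2 alpha with its phosphatase (0.60 ± 0.14, adjusted p = 0.0319 by edgeR), and Asns, the asparagine synthetase that ATF4 induces (0.58 ± 0.13, adjusted p = 0.0319). After DMM against sham and in Oscar-/- against WT, edgeR called 0 of the 156 genes of these 13 lists, with 3 above and 4 below 0 after DMM and 1 below 0 by genotype at an unadjusted p under 0.05, and DESeq2 and limma also called 0.

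**Figure D5:**
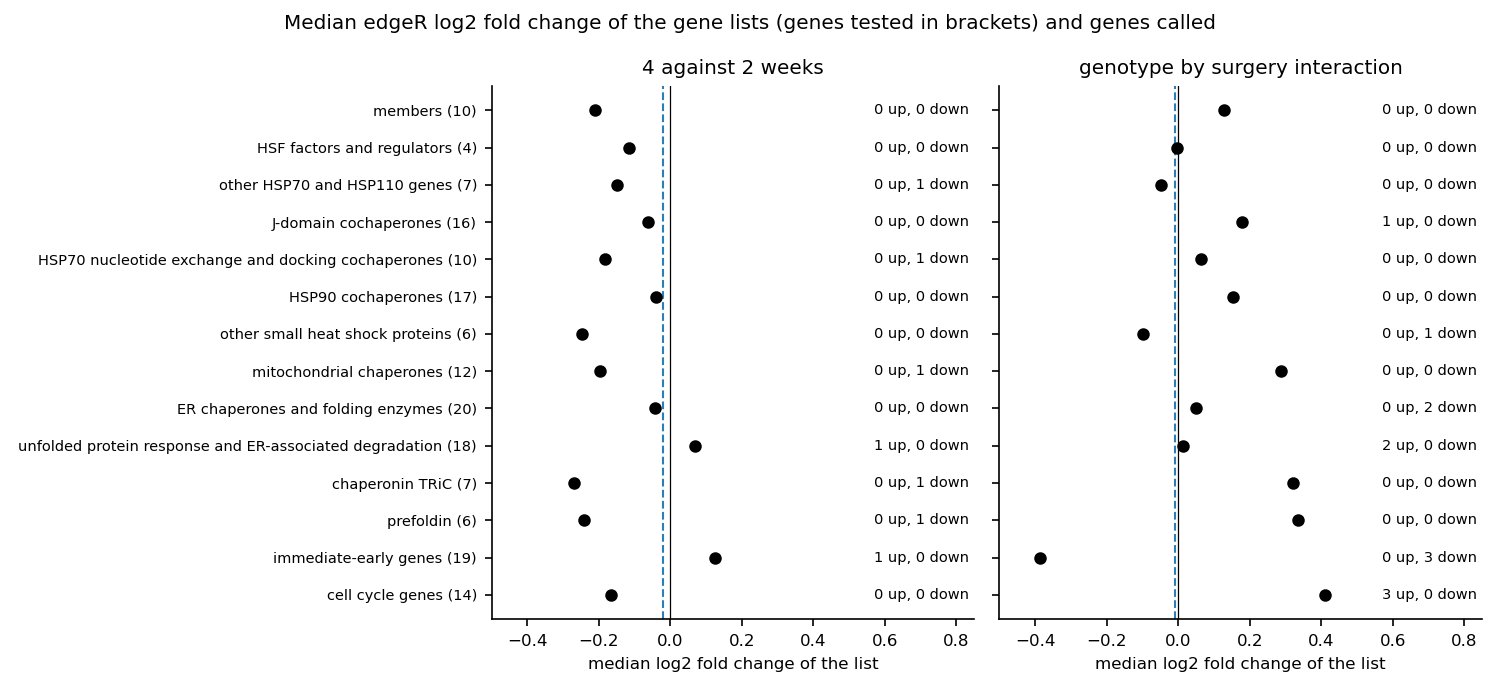
Median edgeR log2 fold change (horizontal axis) of the members and of 13 gene lists, with the number of genes tested in brackets, over time (left) and in the interaction (right), the blue dashed line at the median of all genes and the number of genes called at an adjusted p under 0.05 written at the right of each panel. Most chaperone lists lie left of the line over time and right of it in the interaction, and immediate-early genes lie on the other side in both.

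Across the 8 libraries the members' log2 TMM-scaled counts were compared pair by pair. Pearson's r was 0.98 between Hspa8 and Hspd1, 0.97 between Hspa8 and Hsp90aa1 and 0.93 between Hspa8 and Hsp90ab1. Hspa1a plus Hspa1b had r of 0.53 with Hspb1, which had 0.56 with Hspa5, and r of −0.20 with Hspa8 and −0.43 with Dnajb1. These values describe 8 libraries that share batches and scaling, and carry no test. The 8 expressed genes most like Hspa1a plus Hspa1b among 12536 were Gm48552, Arhgef10l, Bpnt1, Mcts2, Srgap3, Fancc, Jun and Rgmb, with r from 0.97 to 0.92, and Hspb1 ranked at 946. Of these Gm48552 (0 to 1.08 TPM), Srgap3 (0.9 to 1.73), Rgmb (0.93 to 2.39) and Mcts2 (1.04 to 2.64) were near the floor. Those most like Hspa5 were Ndufaf1, Ppp2r2a, Pdhb, Gfer, Fnta, Tsr3, Uchl5 and Emc3, with r from 0.97 to 0.94, and among the members Hsp90aa1 came closest, at 0.80.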

How the data were processed

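Messenger RNA of articular cartilage was sequenced in 8 libraries, 1 per combination of 2 genotypes, 2 surgeries and 2 time points. Per the study's methods, the authors removed adapters and poor reads with BBDuk, mapped the rest on GRCm38 using STAR (2.6.0a) and estimated gene levels using RSEM (1.2.17). The notes of the submitters list these tools and FastQC (0.11.8) beside a human build, although every identifier is a mouse one. The deposited expected counts, RSEM estimates in which a read shared by several genes is split, were rounded before any count test. The deposited TPM has one common total per library.

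GENCODE M21 supplied names for 52403 of the 52636 identifiers, compared after dropping versions. Genes were kept when protein-coding with more than 1 TPM in at least 1 library. EdgeR 4.0.16 quasi-likelihood tests with TMM scaling and Benjamini-Hochberg adjustment over 12538 genes used additive terms for week, surgery and genotype (4 residual degrees of freedom) or added the genotype by surgery interaction (3 residual degrees of freedom). No library repeats a condition, so p-values measure the spread left after these terms. DESeq2 1.42.0, limma 3.58.1 on log2(TPM + 1), RLE scaling, removal of hemoglobin genes, no filter, no week term, the leaving out of each library and summed Hspa1a and Hspa1b counts served as alternatives. The edgeR script was tested on simulated data. Tests ran in R 4.3.3, and tables and figures were made in Python 3.11.15 (matplotlib 3.10.9, scipy 1.17.1, numpy 2.4.6, pandas 2.3.3). Total expected counts of 13189181 to 18533609 per library set the depth, and counting errors and intervals cover counting alone.

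The members, the gene lists and the tests were chosen with earlier results of these data known, and the ratios between members after their values were seen. The text names all 10 members, up to 4 genes of a list with the lowest p of the comparison described, and the 8 genes most correlated with Hspa1a plus Hspa1b and with Hspa5.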

Additional observations from a re-analysis of the deposited data

Results flagged for a closer look

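On TPM 4 members were higher after DMM in WT and lower after DMM in Oscar-/- at both weeks, beside 27.4% of all genes. DIF, the log2(DMM/sham) of Oscar-/- minus that of WT, was −0.65 at 2 weeks and −1.70 at 4 weeks for Hspa1a, −0.76 and −1.10 for Hspa1b, −0.89 and −0.84 for Hspb1 and −0.18 and −0.28 for Hspa5. The median DIF of all expressed genes on TPM was −0.41 and −0.22 at these weeks, and Hspa5 lay above it at 2 weeks. On TMM-scaled counts the signs were opposite, the other way round, for Hsp90aa1 (0.48 and 0.25), Dnajb1 (0.43 and 0.38) and Hspd1 (0.44 and 0.13), beside 16.8% of all genes. With 1 library per condition the difference was not tested within a week, and over both weeks the interaction test of edgeR called 0 of these 7 genes.

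Ratios within a library showed opposite signs too. Hspa1a plus Hspa1b per 100 TPM of Hspa8 was higher after DMM by 0.00861 and 0.331 in WT at 2 and 4 weeks and differed by −0.324 and −0.403 in Oscar-/-. Hsp90aa1 per 100 TPM of Hsp90ab1 differed by −5.20 and −3.81 in WT and by 4.88 and 4.02 in Oscar-/-. Dnajb1 per 100 TPM of Hspa8 differed by −0.118 and −0.493 in WT and by 0.00472 and 0.30 in Oscar-/-. In expected counts the first ratio differed by −0.004435 in WT at 2 weeks and the last by −0.3093 in Oscar-/- at 2 weeks, so that opposite signs at both weeks remained for Hsp90aa1 per Hsp90ab1 alone among the 3. These differences were not tested.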

How the results depend on the processing

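Of 40 log2 fold changes, 243 of 270 values under other settings kept their sign and side of the threshold, 5 passed it and 22 had the other sign. Over time members called went from 0 to 3 lower with DESeq2 (beside 2.98% of all genes) and to 1 higher with limma on TPM (beside 21%). Without the filter on low values 1 was called lower over time (beside 2.37%) and 1 higher in the interaction (beside 2.9%). With limma on TPM the sign turned after DMM for Hspa5 (0.005684), by genotype for Hsph1 (−0.001398), Hsp90ab1 (−0.03418) and Dnajb1 (−0.01669), over time for Hspa1a (0.1359), Hspa5 (0.2776), Hsph1 (0.02439), Hsp90aa1 (0.1191), Hsp90ab1 (0.0371), Dnajb1 (0.1241), Hspb1 (0.008227) and Hspd1 (0.07934), and in the interaction for Hspa5 (−0.2267), Hspa8 (−0.04486), Hsph1 (−0.173), Hsp90ab1 (−0.2261) and Hspd1 (−0.01896). Without the filter it turned for Hsp90aa1 after DMM (−0.0008878) and Hsp90ab1 by genotype (−0.009999), which also turned with DESeq2 (−0.001469) and RLE (−0.001522). Summed with Hspa1b, Hspa1a turned over time (0.151). In expected counts Hsp90aa1 per 100 Hsp90ab1 by week (−2.396) and Hsph1 per 100 Hspa8 by surgery (0.04032) turned. The cause was not tested.

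Leaving out 1 library at a time, members called ranged from 0 to 1 for higher in the interaction (Dnajb1, without WT sham at 4 weeks) and stayed at 0 elsewhere, and 34 of 320 values had the other sign. The ranges of the log2 fold changes concerned were after DMM Hspa1b (−0.2918 to 0.09812), Hspa5 (−0.08372 to 0.001892), Hspa8 (−0.01859 to 0.1113), Hsph1 (−0.0271 to 0.1393), Hsp90aa1 (−0.06909 to 0.06289), Dnajb1 (−0.05408 to 0.1056), Hspb1 (−0.274 to 0.0329), Hspd1 (−0.01126 to 0.12), and by genotype Hspa1b (−0.01218 to 0.3655), Hsph1 (−0.04644 to 0.123), Hsp90ab1 (−0.03948 to 0.03138), Dnajb1 (−0.06344 to 0.09657), Hspb1 (−0.06857 to 0.2362), and over time Hspa1a (−0.3481 to 0.1455), and in the interaction Hspa5 (−0.02015 to 0.1922), Hsph1 (−0.06556 to 0.3747). Of 60 log2 ratios and DIF values by week, 22 had the other sign on TMM-scaled counts and 0 with a pseudocount of 1 TPM. Counts of 63.7 to 160.8 per library limit Hspa1a, Hspa1b and Hspb1. Pairing by replicate number was not possible, because the labels give each condition 1 library and so fewer than 2 shared replicate numbers. Libraries alike in the other factors could be matched, but the ratio tests did not match them. Week was a term of the fits, and without it 0 members were called.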
